A study of Mus musculus with 15 samples.

Results

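Rod photoreceptor genes were followed through RNA-seq libraries of whole mouse eyes taken with their eyelids. The set was defined by name as 38 genes of rod phototransduction and of the rod outer segment, with the transcription factors, trafficking proteins and matrix proteins that serve them. Of these, 37 were found among the 20418 gene symbols of each library and 1, Cngb1, is not analysed here. All mice were BALB/c. The Egr1-/- animals descended from a C57BL/6 line crossed back onto BALB/c, over 5 generations in one set of crosses and 4 in another, and the labels do not say which set a library came from. The groups were newborn wild type (2 libraries), newborn Egr1-/- (2), adult wild type (1), adult Egr1-/- (2) and 8 eyes of 4 mice at day 3. The day 3 mice were 3 Egr1-/- animals, E24 and E29 with 1 open and 1 closed eye each and E32 with both eyes open, and 1 Egr1+/- littermate, E28, with both eyes closed. The labels give no age in days for the newborns and adults and name no animals for them, so their p-values measure the spread between libraries. No batch is named either, so age and any difference between library series cannot be told apart.

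A rod detects light in its outer segment, a stack of membrane discs packed with the visual pigment. Light-activated pigment switches on the G protein transducin, which releases the phosphodiesterase PDE6 from inhibition. PDE6 then degrades cyclic GMP, and cation channels held open by this nucleotide close. Arrestin, a receptor kinase and calcium-regulated guanylate cyclases end the response and restore cyclic GMP. In the mouse, rods are born around birth and their outer segments grow during the weeks after, under the control of Nrl, Nr2e3 and Crx, transcription factors of the photoreceptor lineage.

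Promoter letters are shown first, because many of these genes rose together with age and Crx is itself a member. RefSeq (build GRCm38.p6) held a promoter for 30 of the 37 genes, and the 250 bases before the annotated start were searched on both strands for TAATCC, the core of the sequence bound by Crx, and TGCTGA, part of the sequence bound by Nrl. TAATCC or its reverse complement GGATTA occurred before 12 of the 30 genes, which is 40.0%, against 7.21% of 27025 genes with a promoter in the same table. TGCTGA or TCAGCA occurred before 7 of the 30 genes, which is 23.3%, against 18.0% of all. The motifs do not overlap in letters, and a match is a description of the sequence and not a site of binding. Neither motif occurred before Nrl, Nr2e3, Prph2, Rom1, Pdc, Rd3, Tulp1 or Grk1, genes that the results also describe. The 6 promoters below were picked from the 12 genes with the Crx core. They belong to the abundant Sag and Rbp3, the factors Crx and Samd7, Aipl1, and Gucy2f, the gene that passed as lower at day 3. Each runs 5′ to 3′ on the strand of its gene, with the motifs in capitals, and the coordinates are those of the RefSeq build and not of the build used for the read counts.
Sag, chr1:87803430-87803679, plus strand: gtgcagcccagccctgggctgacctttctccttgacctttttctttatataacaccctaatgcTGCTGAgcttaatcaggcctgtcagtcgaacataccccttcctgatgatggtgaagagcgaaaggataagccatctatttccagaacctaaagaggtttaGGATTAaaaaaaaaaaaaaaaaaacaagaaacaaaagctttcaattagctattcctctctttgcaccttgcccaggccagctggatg
Rbp3, chr14:33953753-33954002, plus strand: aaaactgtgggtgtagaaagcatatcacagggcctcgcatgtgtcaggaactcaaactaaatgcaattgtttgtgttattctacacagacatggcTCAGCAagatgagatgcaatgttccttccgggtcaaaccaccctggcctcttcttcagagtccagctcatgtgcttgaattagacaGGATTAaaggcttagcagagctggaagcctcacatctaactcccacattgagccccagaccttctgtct
Crx, chr7:15879956-15880205, minus strand: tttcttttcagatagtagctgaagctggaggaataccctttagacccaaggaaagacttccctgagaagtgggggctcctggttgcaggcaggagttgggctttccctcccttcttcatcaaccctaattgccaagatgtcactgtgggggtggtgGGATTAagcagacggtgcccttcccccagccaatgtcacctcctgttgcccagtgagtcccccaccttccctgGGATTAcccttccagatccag
Samd7, chr3:30746043-30746292, plus strand: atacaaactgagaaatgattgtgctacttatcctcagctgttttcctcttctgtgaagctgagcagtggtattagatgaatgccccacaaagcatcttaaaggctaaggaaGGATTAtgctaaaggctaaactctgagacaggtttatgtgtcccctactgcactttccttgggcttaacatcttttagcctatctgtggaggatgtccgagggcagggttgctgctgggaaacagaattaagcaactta
Aipl1, chr11:72037510-72037759, minus strand: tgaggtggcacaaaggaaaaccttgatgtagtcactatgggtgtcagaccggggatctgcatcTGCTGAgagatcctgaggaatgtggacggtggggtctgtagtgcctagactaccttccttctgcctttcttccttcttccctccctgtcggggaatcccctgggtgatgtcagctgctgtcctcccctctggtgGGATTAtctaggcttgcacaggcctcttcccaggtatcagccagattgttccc
Gucy2f, chrX:142196937-142197186, minus strand: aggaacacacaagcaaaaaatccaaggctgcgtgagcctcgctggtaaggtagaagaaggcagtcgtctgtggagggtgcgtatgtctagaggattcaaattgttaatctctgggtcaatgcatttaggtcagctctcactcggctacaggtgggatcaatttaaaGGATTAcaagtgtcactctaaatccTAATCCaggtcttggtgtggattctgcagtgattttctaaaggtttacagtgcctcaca
In these windows the first base of a match lay 87 bases before the start in Sag, 69 in Rbp3, 94 and 21 in Crx, 139 in Samd7, 53 in Aipl1 and 84 and 59 in Gucy2f for the Crx core. TGCTGA or its complement began 187 bases before the start in Sag and in Aipl1 and 155 bases before it in Rbp3.

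Libraries held 20334849 to 43907093 reads in transcripts, so the scarcest values below rest on few reads, which are given for only some of them. Egr1 itself ran against the genotype labels, at 47.0 and 60.8 CPM (counts scaled to a library total adjusted by the TMM method) in the newborn wild types and 214.2 and 273.1 in the newborn libraries labelled Egr1-/-. In adults it stood at 33.2 CPM in the wild type against 255.2 and 184.6. At day 3 it was 99.0 and 110.1 CPM in the Egr1+/- eyes and 156.3 to 365.9 in the Egr1-/- ones. Whether these reads come from a stretch that the knockout allele keeps was not tested, so the groups are called "labelled knockout" below. Newborn labelled-knockout replicate 1 stood apart: lens genes took 0.134% of its reads against 9.24% to 15.9% in the other newborn and day 3 libraries, and Cryaa was at 249.9 CPM against 36957 to 63663. Adult labelled-knockout replicate 1 had 2.63 CPM of the corneal keratin gene Krt12, against 3865 and 6436 in the other adults. The labels describe both fixation of eyes and storage in RNAlater, and which treatment a sequenced eye had is not clear from them.

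In adult eyes the rod genes were abundant as a set, though they were not ranked against the other genes of the eye. Their 37 levels summed to 41149.5 CPM in the wild type and to 25983 and 33097 CPM in the labelled knockouts. Compared between genes by RPKM (reads adjusted for exon length and depth), the order in the adult wild type was Gnat1 at 4697, Sag at 1623, Prph2 at 981, Pde6g at 949, Gnb1 at 927, Rom1 at 795, Unc119 at 776 and Rbp3 at 496. The adult order rests on 1 library, so neighbours in it such as Prph2, Pde6g and Gnb1 cannot be separated. In newborn wild-type eyes the sums were 3142 and 3723 CPM and the order was another one. Unc119 led at a mean of 181 RPKM, followed by Gnb1 at 151, Rbp3 at 109, Nr2e3 at 106, Nrl at 97.0, Rom1 at 94.7, Crx at 77.3 and Pdc at 65.0. Of the 8 leading genes of the newborn, 3 were transcription factors, and none of these was among the 8 leading genes of the adult. Nr2e3 (89.6 and 123), Nrl (81.7 and 112) and Rom1 (80.6 and 109) kept this order in both newborn wild types, while Rbp3 (82.4 and 136) was below Nr2e3 in replicate 1 and above it in replicate 2.

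**Figure D1:**
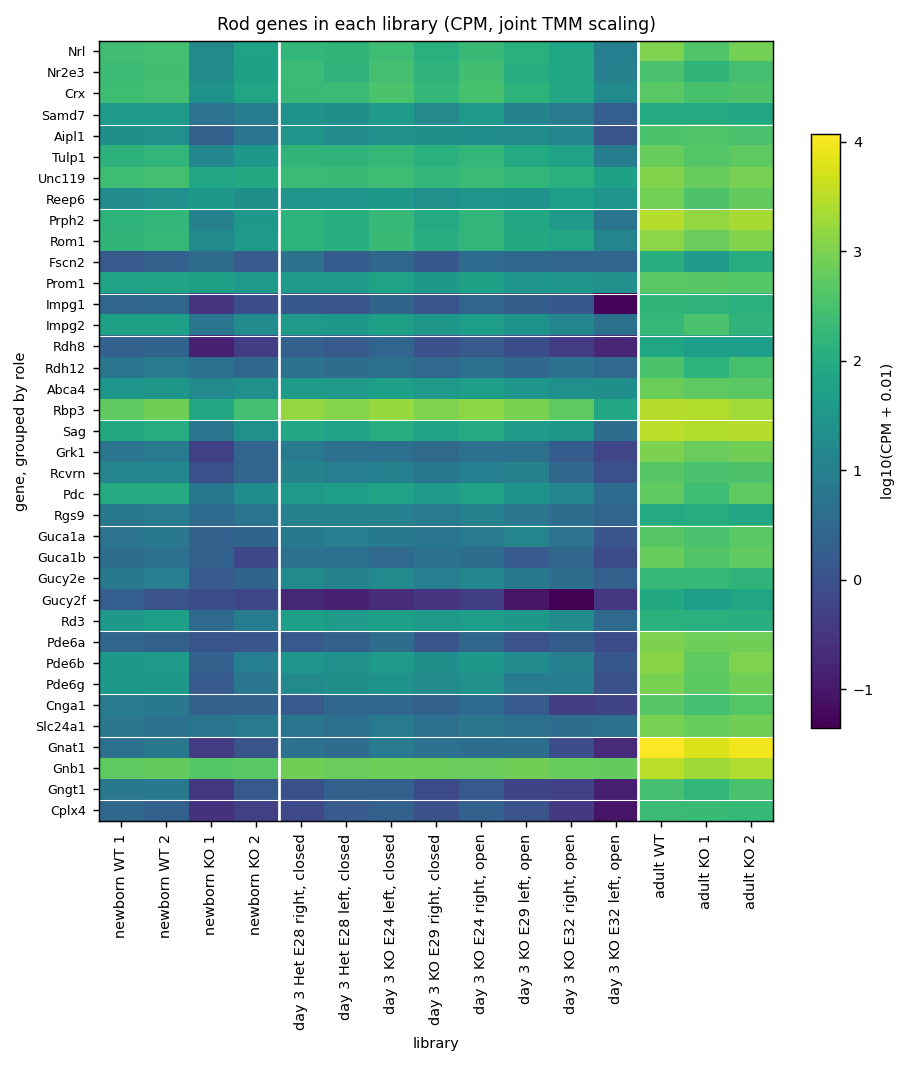
Level of each rod gene (rows, grouped by role and separated by thin lines) in each of the 15 libraries (columns), as log10(CPM + 0.01), with thick lines between newborn, day 3 and adult eyes. Adult columns are bright for most genes, while the transcription factors at the top were already high in newborn wild types, and the newborn labelled-knockout columns and the left eye of E32 are the darkest.

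From newborn to adult, rod genes rose by amounts that differed over several orders of magnitude. In wild type, 32 of 37 passed as higher in the adult, where 18.0% of all genes tested were called higher, and the median log2 fold change of the 37 was 4.77 against -0.08 over all genes. The 5 that did not pass were Impg2, Rbp3, Crx, Nr2e3 and Nrl, all of them higher in the adult by their fitted values. In the labelled knockouts 37 of 37 passed as higher (19.3% of all genes), with a median of 6.19 against -0.01. The newborn wild-type mean as a share of the adult wild type had a median of 3.60% over the 37 genes. It ran from 0.0475% for Gnat1 to 76.5% for Nr2e3. A share under 5% was found for 21 genes, 5 of them under 1%, a share from 5% to 20% for 7 and a share of at least 20% for 9.

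Transducin spanned the widest range. Gnat1, the alpha subunit of rod transducin, stood at 4.51 and 6.64 CPM in the newborn wild types (93 and 155 reads) and at 11728 CPM in the adult wild type. In the labelled knockouts it was 0.399 and 1.15 CPM in newborns and 6222 and 9047 CPM in adults. The adult level was 2104 times the newborn one in wild type, with a log2 fold change of 11.01 ± 0.93 (SE; edgeR adjusted p = 0.000422). Gngt1, the gamma subunit, rose from 6.64 and 6.81 CPM to 297.0 CPM in wild type, a log2 change of 5.44 ± 0.64 (adjusted p = 0.00122). Gnb1, a beta subunit that many other tissues also make, rose by 2.52 ± 0.42 (adjusted p = 0.00456), from 539 and 590 to 3294 CPM. Over the 3 subunits the newborn share of the adult level was therefore 0.0475%, 2.27% and 17.1%.

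The effector and channel genes were low at birth. Pde6g, the inhibitory subunit of PDE6, stood at 34.8 and 34.7 CPM in newborn wild types and 964.5 CPM in the adult, a log2 rise of 4.77 ± 0.66 (edgeR adjusted p = 0.00215). The catalytic subunits Pde6a and Pde6b were at 0.237% and 3.01% of the adult level. Cnga1, a subunit of the cyclic GMP-gated channel, stood at 7.95 and 6.47 CPM and reached 457.8 CPM in the adult wild type. Slc24a1, the exchanger that carries calcium out of the rod outer segment, rose from 6.16 and 5.01 CPM to 899.2 CPM, a log2 change of 7.31 ± 0.35 (adjusted p = 0.000188). All 5 genes were under 4% of the adult level in newborn wild type.

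Among the genes that end the response, Sag, which encodes rod arrestin, was at 89.4 and 103 CPM in newborn wild types and at 3152 CPM in the adult. Rcvrn, a calcium sensor that restrains the receptor kinase, went from 13.4 and 14.8 CPM to 450.1 CPM. Their log2 rises were 5.01 ± 0.78 and 4.97 ± 0.47 (edgeR adjusted p = 0.0033 and 0.00058). Pdc, a protein that binds the beta and gamma subunits of transducin, stood higher in newborns, at 17.2% of the adult level, and Grk1, the receptor kinase, lower, at 0.658%. In the cyclase group, Guca1a, a calcium-sensing activator of the cyclases, rose from 5.14 and 6.47 CPM to 456.5 CPM, and Gucy2e, a retinal guanylate cyclase, from 7.03 and 9.38 CPM to 190.7 CPM. Rd3, an inhibitor and transport partner of the cyclases, was at 32.6% of the adult level, the highest share in its group. Gucy2f, the other retinal cyclase, was at 1.71%.

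Retinoid handling, disc structure and matrix showed mixed shares. Rbp3, the retinoid carrier between photoreceptors and pigment epithelium, stood at 566.8 and 792.3 CPM in newborn wild types, 23.0% of the adult 2957 CPM, and its rise of 2.09 ± 0.71 on the log2 scale did not pass (edgeR adjusted p = 0.0602). Rdh8, an outer segment retinol dehydrogenase, went from 2.23 and 2.40 CPM to 67.4 CPM, a rise of 4.83 ± 0.33 (adjusted p = 0.00025). Prph2 and Rom1, tetraspanins of the disc rim, were at 142.7 and 174 CPM and at 160.4 and 183.6 CPM in newborns. In the adult wild type they were at 2919.9 and 1372 CPM, so that Rom1 was the higher of the pair by CPM at birth and Prph2 in the adult. The matrix proteoglycan genes Impg1 and Impg2 had unlike shares: Impg1 was at 1.78% of its adult level and Impg2 at 30.1%. Cplx4, a complexin of the photoreceptor ribbon synapse, was at 3.01 and 2.10 CPM in newborns and 223.1 CPM in the adult.

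As a role group the transcription factors were the exception to the low shares, although Rd3 at 32.6% and Impg2 at 30.1% stood above Nrl. Their newborn level was 26.0% to 76.5% of the adult one, where no other role group had its lowest member above 3%. Nrl stood at 258.1 and 300.7 CPM in newborn wild types and 1074 CPM in the adult, a log2 difference of 1.92 ± 0.70 that did not pass (edgeR adjusted p = 0.0764). Samd7, a nuclear protein that represses other genes in rods, passed with a rise of 1.06 ± 0.31 (adjusted p = 0.038), from 44.5 and 40.5 to 89.9 CPM. Of the trafficking genes, Unc119, which carries lipid-modified transducin, and Tulp1, which acts in transport to the outer segment, stood at 24.5% and 23.0% of the adult level. Aipl1, a chaperone of PDE6, stood at 6.59% and Reep6, a membrane protein of rod trafficking, at 2.57%. In whole-eye libraries, fewer cells of a type and less RNA per cell cannot be told apart.

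**Figure D2:**
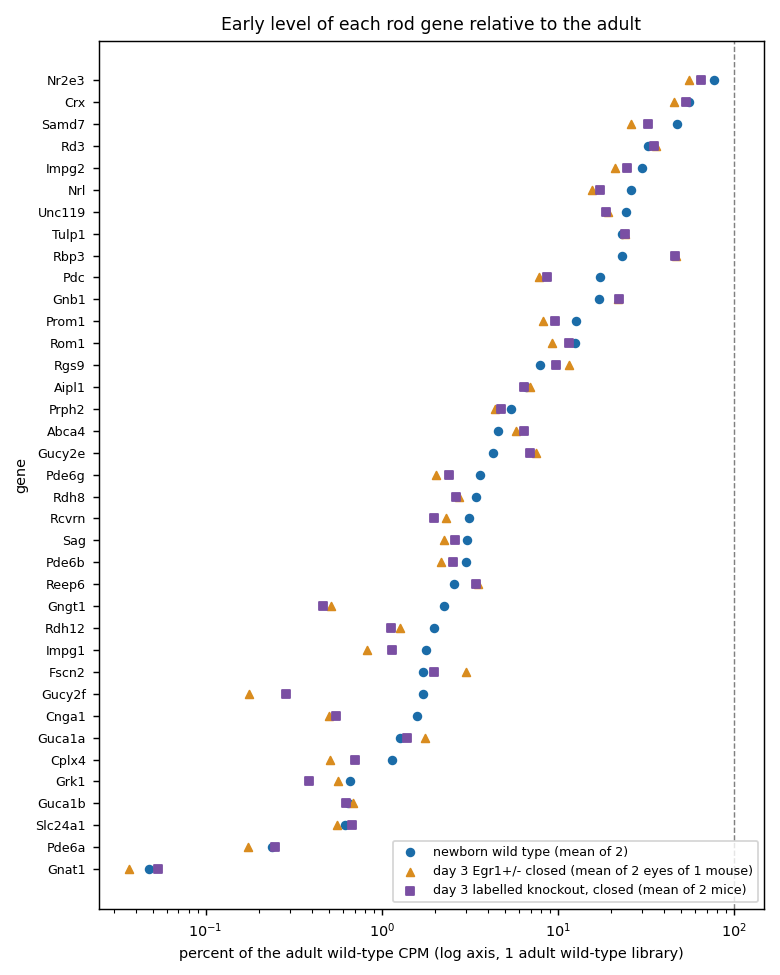
CPM of each rod gene in 3 early groups as a percent of the single adult wild-type library (log axis, means of 2 eyes or libraries, dashed line at 100%). Genes are ordered by the newborn wild-type share, from 0.0475% for Gnat1 at the bottom to 76.5% for Nr2e3 at the top, and in both day 3 groups Gucy2f, Gngt1 and Cnga1 lie furthest to the left of their newborn wild-type point and Rbp3 furthest to the right.

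In newborn eyes the labelled knockout had less rod RNA. The 37 genes summed to 868.5 and 1357 CPM in the labelled knockouts against 3142 and 3723 CPM in the wild types, groups that do not overlap. Of these sums Gnb1, which many other tissues also make, gave 446.9 and 473.6 CPM against 539.1 and 589.9. A total of 25 of 37 genes fell and 0 rose, where 9.38% of all genes tested were called lower and 14.6% higher, and the median log2 fold change was -2.25 against -0.07 over all genes. At an unadjusted edgeR p under 0.05 the count was 30 of 37, where it was 6496 of all 17592 genes tested. Both labelled knockouts lay below both wild types for 34 of 37 genes, against 35.0% of all genes tested. Replicate 1, the library with few lens reads, was the lower of the labelled knockouts for 31 of 37 genes. The calls depend on single libraries, among all genes tested as well as among the 37. Leaving out a newborn library left 1 in its group, so only the median is given here. It was -2.28 without wild-type replicate 1 and -2.17 without wild-type replicate 2. Without labelled-knockout replicate 1 the median was -1.86, and without replicate 2 it was -3.17.

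Of the transducin and PDE6 genes, all but Gnb1 passed as lower in the newborn labelled knockouts. Gnat1 stood at 0.399 and 1.15 CPM (12 and 30 reads) against 4.51 and 6.64, a log2 change of -2.85 ± 0.68 (edgeR adjusted p = 0.0239). Gngt1 was at 0.333 and 1.53 CPM against 6.64 and 6.81, or -2.87 ± 0.62 (adjusted p = 0.0165). Pde6g had the largest fall of the 37, -3.19 ± 0.59 (adjusted p = 0.00983), from 34.8 and 34.7 to 1.60 and 6.02 CPM. For none of these 3 genes did the groups overlap. Gnb1 did not pass, at 446.9 and 473.6 CPM against 539.1 and 589.9, or -0.29 ± 0.36. Cnga1 fell by 1.70 ± 0.28 on the log2 scale (adjusted p = 0.0066), from 7.95 and 6.47 to 2.10 and 2.30 CPM. Slc24a1, the exchanger, gave 5.66 and 7.40 CPM against 6.16 and 5.01, values that overlap.

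Of the shutoff genes 3 of 5 fell, and of the cyclase genes 3 of 5. Sag was at 5.66 and 23.5 CPM against 89.4 and 103 (-2.72 ± 0.66, edgeR adjusted p = 0.0255). Rcvrn was at 0.932 and 2.61 CPM against 13.4 and 14.8 (-3.00 ± 0.43, adjusted p = 0.00485). Rd3 fell by 2.90 ± 0.45 and Gucy2e by 2.01 ± 0.28 on the log2 scale (adjusted p = 0.00582 and 0.00465). Gucy2e stood at 1.63 and 2.45 CPM and Guca1a at 2.16 and 2.45 CPM, both below their wild types. Grk1, Guca1b, Gucy2f and Rgs9, a protein that speeds the shutoff of transducin, did not pass, at log2 changes of -2.13, -1.57, -0.90 and -0.72.

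All 4 transcription factors fell too. Nrl stood at 17.3 and 60.1 CPM against 258.1 and 300.7 (-2.84 ± 0.64, edgeR adjusted p = 0.0193), and Samd7 at 5.26 and 9.01 CPM against 44.5 and 40.5 (-2.57 ± 0.28, adjusted p = 0.00323). Crx and Nr2e3 changed by -2.43 and -2.81. Prph2 was at 10.4 and 34.2 CPM against 142.7 and 174, and Rom1 at 17.8 and 36.4 CPM against 160.4 and 183.6 (-2.82 ± 0.61 and -2.66 ± 0.45, adjusted p = 0.0164 and 0.00744). Rdh8 fell from 2.23 and 2.40 to 0.133 and 0.422 CPM, Cplx4 from 3.01 and 2.10 to 0.266 and 0.460 CPM (8 and 12 reads), and Impg1 from 2.71 and 2.87 to 0.300 and 0.882 CPM. Tulp1 (14.3 and 34.4 CPM against 136.3 and 161.4), Unc119 (70.2 and 86.6 against 248.6 and 301.7) and Impg2 (6.12 and 18.3 against 54.4 and 53.2) also fell. Rbp3 did not pass, at 79.4 and 279.2 CPM against 566.8 and 792.3 (-1.92 ± 0.62, adjusted p = 0.065). The remaining genes that did not pass were Rdh12 and Abca4, which clear retinal, Prom1, which acts in disc formation, Fscn2, which bundles actin, and Reep6. Of the 12 that did not pass, Slc24a1, Reep6 and Fscn2 had positive log2 values, 0.24, 0.41 and 0.52.

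**Figure D3:**
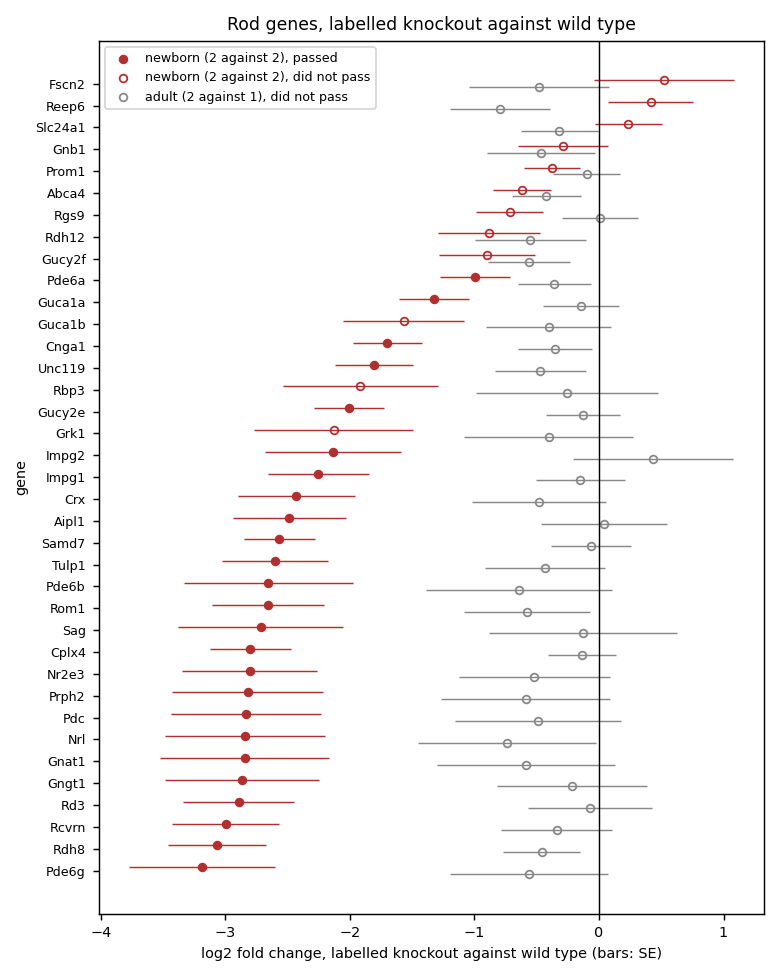
Log2 fold change of each rod gene in labelled knockout against wild type, with its SE, in newborn eyes (2 against 2 libraries, red) and in adult eyes (2 against 1, grey); filled points passed at an adjusted p under 0.05. The newborn values run from -3.19 for Pde6g to 0.52 for Fscn2 and 25 are filled, while no adult value is filled and most lie between -0.8 and 0.

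Other cell types of the eye moved in the same newborn comparison, and their values stand beside those of the rods. Lower were 30 of 34 other photoreceptor genes (median log2 fold change -1.62), 8 of 14 cone genes (-2.05), 11 of 14 ganglion cell genes (-1.81), 10 of 15 amacrine and horizontal cell genes (-1.81), 7 of 18 bipolar genes (-1.28) and 16 of 18 genes of retinal progenitors (-2.11). Müller glia had 3 genes lower and 2 higher of 9, and the pigment epithelium had 1 lower of 13 tested (median -0.07). Of 15 epidermal genes 11 rose (median 2.90), as did 5 of 13 muscle genes and 6 of 10 leukocyte genes. The epidermal genes summed to 12483 and 9481 CPM in the labelled knockouts against 1206 and 2129 CPM in the wild types, groups that do not overlap. Lens genes summed to 1141 CPM in labelled-knockout replicate 1 to 111145 CPM in replicate 2 and to 126221 and 128654 CPM in the wild types. By edgeR 0 of 27 passed, and 0 had an unadjusted p under 0.05. The part of these other tissues in the level of rod RNA was not tested.

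**Figure D4:**
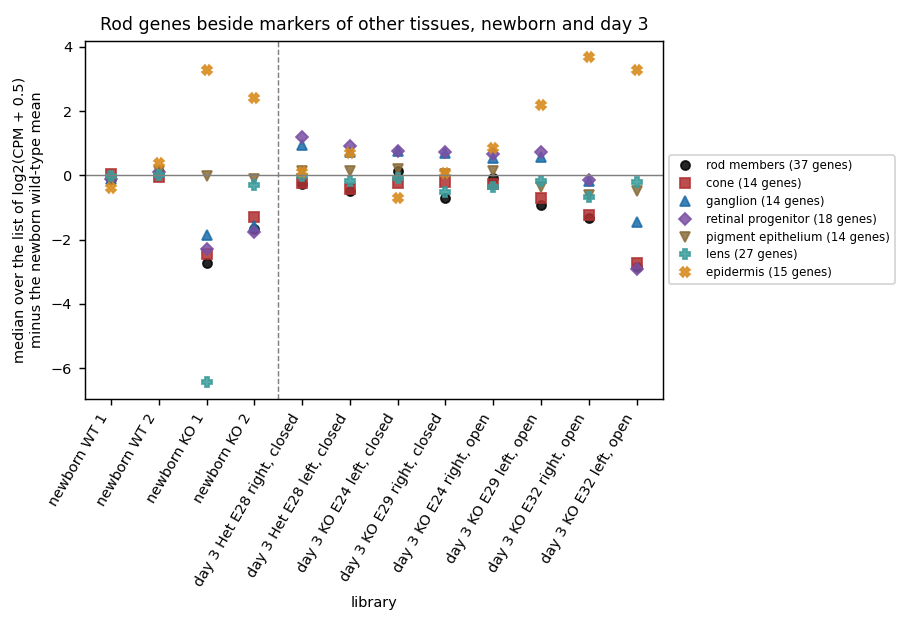
Median over each gene list of log2(CPM + 0.5) minus the newborn wild-type mean, for the 12 newborn and day 3 libraries (1 point per list and library). Rod, cone, ganglion cell and progenitor genes lie together below 0 in both newborn labelled knockouts and in the left eye of E32, the pigment epithelium stays within 0.6 of 0, and epidermal genes lie above 2 in those libraries.

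In adult eyes no rod gene passed between genotypes. The count was 0 of 37 by edgeR and by DESeq2, where edgeR called 0.0% of all genes tested, and 0 of 37 had an unadjusted edgeR p under 0.05 (1 by DESeq2). The median log2 fold change was -0.40 against 0.02 over all genes. Both labelled knockouts lay below the wild type for 31 of 37 genes, against 32.9% of all genes tested, the exceptions being Gngt1, Guca1a, Samd7, Aipl1, Impg2 and Rgs9. Gnat1, for example, stood at 6222 and 9047 CPM against 11728, Sag at 2769 and 2862 against 3152, and Nrl at 397.6 and 856.7 against 1074. Impg2 was at 322.7 and 149.0 CPM against 178.5, with the wild type between the labelled knockouts. With 1 wild-type library the spread was taken from the other groups, and the adult SE of a log2 change was 0.72 for Gnat1. Leaving out labelled-knockout replicate 1 gave a median of -0.24, and leaving out replicate 2 gave -0.56.

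The effect of the genotype label differed between ages for 2 genes. Samd7 had an adult effect higher than its newborn effect by 2.50 ± 0.44 on the log2 scale (edgeR adjusted p = 0.0426), and Cplx4 by 2.66 ± 0.44 (adjusted p = 0.0422). Among all genes tested 0.995% passed in this direction. Samd7 stood at 94.0 and 73.9 CPM in the adult labelled knockouts against 89.9 in the wild type, and Cplx4 at 209.2 and 187.5 CPM against 223.1, so that neither differed there beyond its spread. Over the 37 genes the median difference was 2.01, and 21 had an unadjusted edgeR p under 0.05, where 3638 of all 17592 genes tested did. Neither call held without newborn wild-type replicate 1 or 2 or without newborn labelled-knockout replicate 1 (0 genes in each case). The number was 8 without either adult labelled knockout and 19 without newborn labelled-knockout replicate 2. In a fit of 1 genotype effect over both ages, 0 of 37 passed, where edgeR called 0.0114% of all genes, and the median was -1.43. An unadjusted edgeR p under 0.05 was found for 28 of the 37 and for 3668 of all 17592 genes tested. DESeq2 called 23.

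At day 3 the eyes differed widely in rod RNA. The 37 genes summed to 4184 and 4798 CPM in the open and closed eye of E24, to 2891.5 and 3078 CPM in those of E29, to 1954.5 and 907.8 CPM in the right and left eye of E32, and to 4126 and 3459.5 CPM in the eyes of the Egr1+/- mouse E28. Of these sums Gnb1, which many other tissues also make, gave 591.6 CPM in the left eye of E32 and 758.8 CPM in the closed eye of E24. The sums therefore understate the spread of the other genes between these eyes. The left eye of E32 was the lowest of the 8 for 31 of 37 genes, and an eye of E24 was the highest for 26. The same counts were not made over all genes, so they describe the members only. The ratio of the highest to the lowest eye had a median of 15.3 over the 37 genes and was not taken over all genes. It was 1.32 for Gnb1, 2.07 for Slc24a1, 2.10 for Reep6 and 2.33 for Prom1, and 38.0 for Gnat1 and 65.8 for Impg1. Impg1 in the left eye of E32 was 1 read and Gnat1 there was 5 reads.

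The genes that differed little among day 3 eyes were also those with little change in newborn labelled knockouts. Across the 37 genes, Spearman's rho between the newborn log2 fold change and the ratio of highest to lowest day 3 eye was -0.769. This is a description across genes, which are not independent, and the sets of libraries behind the measures are separate. The value was not taken over all genes, and the left eye of E32 set the lowest day 3 value for 31 of the 37. In the left eye of E32 the cone genes summed to 37.3 CPM against 134 to 311 CPM in the other 7 eyes, the progenitor genes to 625 CPM against 2525 to 5780.2 CPM, and the lens genes to 127190 CPM, within the range of the others. Epidermal genes summed to 17887 and 11614 CPM in the eyes of E32 and to 1227 to 7798 CPM in the other 6. Their part in the level of rod RNA was not tested.

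From newborn to day 3 in the labelled knockout, most rod genes had higher values but few passed. The 2 eyes of a mouse were summed, so 3 mice were compared with 2 libraries. Passing as higher were 4 of 37 genes, where 11.1% of all genes tested were called higher, and as lower 1 of 37, where 6.7% were called lower, so the share of members that rose was near the background. The median log2 fold change was 1.49 against -0.08 over all genes. An unadjusted edgeR p under 0.05 was found for 21 of the 37 and for 6650 of all 17980 genes tested. Rd3 rose by 2.53 ± 0.66, Gucy2e by 2.14 ± 0.62, Aipl1 by 2.04 ± 0.54 and Guca1a by 1.55 ± 0.44 (edgeR adjusted p = 0.0367, 0.0485, 0.0377 and 0.0457), and Gucy2f fell by 1.76 ± 0.42 (adjusted p = 0.0278). The newborn labelled knockouts in this comparison are those that were low against wild type above. The calls depend on single units: 0 genes passed without newborn labelled-knockout replicate 1, without replicate 2 or without E29. Only 1 passed without E24, without either adult labelled knockout or without either newborn wild type, and 3 without E28. Without E32, 23 rose and 1 fell, and without the left eye of E32 alone, 12 rose and 1 fell.

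Of the retinal cyclases, Gucy2e passed as higher and Gucy2f as lower at day 3, and the difference between the genes was not tested. Gucy2e stood at 1.63 and 2.45 CPM in the newborn labelled knockouts, at 7.03 and 9.38 CPM in the newborn wild types and at a lowest of 1.95, a median of 10.5 and a highest of 17.4 CPM in the 8 day 3 eyes, a range that holds both wild-type values. Gucy2f stood at 0.899 and 0.652 CPM (27 and 17 reads) in the newborn labelled knockouts, at 1.89 and 1.07 CPM in the newborn wild types, and at 0.0348 to 0.45 CPM in the day 3 eyes, which held 1 to 12 reads each. Every day 3 eye was below every newborn library for Gucy2f. In the adults it was at 45.7 to 86.5 CPM, a log2 rise of 7.96 ± 0.41 over day 3 in the labelled knockout (edgeR adjusted p = 1.14e-05). Guca1a was at 1.28 CPM in the left eye of E32, below the newborn libraries, and at 5.11 to 13.4 CPM in the other 7 day 3 eyes. Rd3 was at 3.15 CPM in that eye and at 18.2 to 52.2 CPM in the others, against 3.13 and 8.32 CPM in newborn labelled knockouts and 34.2 and 50.9 CPM in newborn wild types.

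Since the eyes differed in photoreceptor RNA as a whole, each gene was also set against Crx within its library, a measure chosen after the values had been seen. Of 36 genes, 1 had a ratio to Crx (RPKM over RPKM) that was higher in all 8 day 3 eyes than in all 4 newborn libraries, where 0.0501% of all genes did so, and 2 had a lower one, where 3.09% did. The higher one was Rbp3, at 1.25 to 2.10 in newborns and 2.56 to 4.03 at day 3. Crx itself was at 8.37 and 22.8 RPKM in the newborn labelled knockouts, against 65.7 and 88.9 in the newborn wild types. A gene that did not follow photoreceptor RNA, such as Gnb1 with ratios of 1.91 to 16.3 in newborns, could therefore hardly be higher. The share of 0.0501% is thus no measure of how unusual Rbp3 is. The lower ones were Gngt1 and Pdc, a count near the share over all genes. Gngt1 was at 0.0396 to 0.0805 in newborns and 0.0121 to 0.0284 at day 3, and Pdc at 0.6 to 0.924 and 0.4 to 0.519. Gngt1 rested on 10 and 40 reads in the newborn labelled knockouts and on 3 to 49 reads in the day 3 eyes. In adults the ratio of Gngt1 to Crx was 1.59 to 2.83 and that of Pdc 1.75 to 3.59. Prph2 had overlapping ratios, 0.452 to 0.673 and 0.383 to 0.717. With Nr2e3 in place of Crx the same 3 genes were found, but 2 of them only by a narrow margin. Rbp3 had a newborn highest of 1.98 and a day 3 lowest of 1.99. Pdc had a newborn lowest of 0.563 and a day 3 highest of 0.556. Rbp3 by CPM stood at 566.8 and 792.3 in newborn wild types and at a lowest of 77.7, a median of 1120.0 and a highest of 1703 at day 3.

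**Figure D5:**
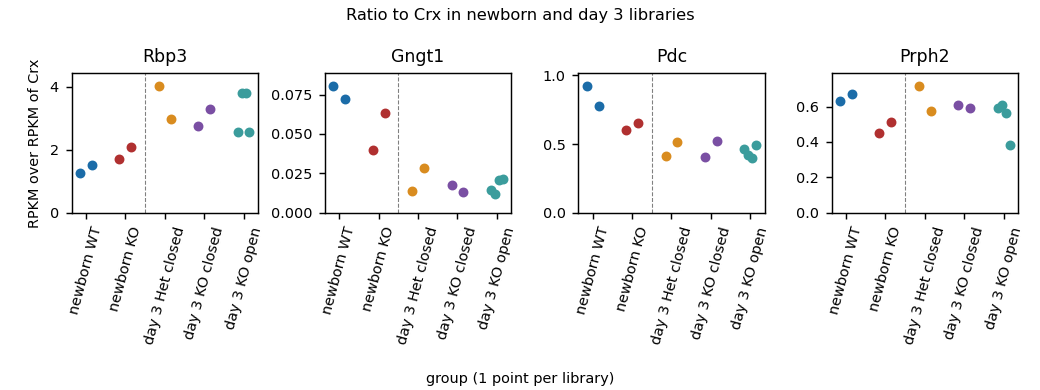
Ratio of RPKM to that of Crx for 4 genes in the newborn and day 3 libraries (1 point per library, linear axes from 0, dashed line between newborn and day 3). Rbp3 lies higher in all 8 day 3 eyes than in all 4 newborn libraries, Gngt1 and Pdc lie lower, and Prph2 overlaps.

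No rod gene passed between open and closed eyelids at day 3. With the mouse as a block, edgeR and DESeq2 called 0 of 36 genes tested, where edgeR called 0.548% of all genes, and 0 had an unadjusted p under 0.05. Gucy2f had too few reads to be tested. The median log2 fold change of open against closed was -0.19 against 0.01 over all genes. The open eye was lower than the closed one in both E24 and E29 for 22 of the 36 genes, against 29.2% of all genes. The sum of the 37 genes in the open eye was 0.872 of that in the closed eye of E24 and 0.939 in E29, while the sums of the 6 labelled-knockout eyes ran from 907.8 to 4798 CPM. These sums include Gnb1, at 684.7 and 758.8 CPM in the open and closed eye of E24 and 778.6 and 703.3 in those of E29. Pde6g, the gene with the lowest value, stood at 23.8 and 27.8 CPM in the open and closed eye of E24 and at 8.37 and 18.8 CPM in E29 (-0.68 ± 0.79). Without the block, on the 6 labelled-knockout eyes, the median was -0.78, and that value takes in both open eyes of E32.

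Labelled-knockout and Egr1+/- mice at day 3 were not told apart by rod genes either. edgeR and DESeq2 called 0 of 37, where edgeR called 0.0% of all genes tested, and 0 had an unadjusted p under 0.05. The median log2 fold change was -0.33 against 0.03 over all genes. Gnat1 was at 4.78 and 3.80 CPM in the eyes of the lone Egr1+/- mouse and at 0.199 to 7.58 CPM in those of the labelled knockouts, and Nrl at 176 and 160 CPM against 9.89 to 247.5. An eye of the Egr1+/- mouse was the highest of the 8 for 7 of 37 genes, which were Gnb1, Gngt1, Grk1, Rcvrn, Rd3, Aipl1 and Fscn2. How many of all genes were highest in an eye of E28 was not counted. The median was -0.92 without E24, 0.06 without E32 and 0.15 in closed eyes alone. With 1 Egr1+/- mouse the spread came from the 3 labelled knockouts, and the SE was 1.21 for Gnat1.

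From day 3 to adult in the labelled knockout, 34 of 37 genes rose (24.4% of all genes tested were called higher), with a median log2 fold change of 4.38 against 0.07. Rbp3, Crx and Nr2e3 did not pass. Gnat1 rose by 11.03 ± 1.09 (edgeR adjusted p = 0.000165), Gngt1 by 8.10 ± 0.79, Cnga1 by 7.55 ± 0.68, Cplx4 by 7.44 ± 0.73 and Slc24a1 by 7.08 ± 0.32 (adjusted p = 0.000156, 0.000119, 0.000162 and 8.76e-06). In the same comparison Rd3 rose by 1.87 ± 0.58, Samd7 by 2.07 ± 0.71 and Tulp1 by 2.11 ± 0.60 (adjusted p = 0.0278, 0.0389 and 0.0195). Rbp3 differed by 1.32 ± 0.68 (adjusted p = 0.135), from 77.7 to 1703 CPM in the labelled-knockout eyes at day 3 to 2769.9 and 2060.2 CPM in the adults. Of the other lists, 10 of 14 cone genes and 12 of 18 bipolar genes rose as well, and 17 of 18 progenitor genes fell. Among all 17980 genes tested, 4625 were called lower.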

How the data were processed

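Poly(A)+ RNA of whole eyes was made into unstranded Illumina libraries with 18 PCR cycles, per the labels' protocols. The submitters' processing notes name the build mm8, TopHat2 2.0.11, Bowtie 0.12.9, SAMtools and CASAVA 1.8, and the annotation and the counting tool are not given in the sources used here. Each library's deposited table gave the authors' raw read counts for 24373 RefSeq transcripts, and RPKM values that the authors had scaled to exon length and to a library total of their own. Reads of overlapping genes cannot be told apart.

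Each of 20418 symbols was represented by its transcript of highest mean count. Counts were scaled by TMM, filtered by filterByExpr and tested by the quasi-likelihood test of edgeR 4.0.16 under R 4.3.3, with p-values adjusted by Benjamini-Hochberg over all genes tested and a threshold of 0.05. "Passed", "rose" and "fell" refer to it. An SE is the size of the log2 fold change over the root of its F statistic. Newborn and adult eyes (7 libraries) were fitted together, each group with its own mean. Comparisons of day 3 with other ages summed the 2 eyes of a mouse, and eyelid states were compared over the 8 eyes with the mouse as a block. The spread of a lone library or mouse was taken from the other groups. The scripts were tested on simulated data.

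The members and lists were chosen with earlier results of these data known. Values per library are given, for each role, for the gene with the highest mean RPKM, for the gene with the smallest newborn p, and for a gene that passed against the direction of the others. Pdc, Rd3, Aipl1, Gnb1 and Reep6 are given values besides, chosen after seeing them. Alternatives were size factors, the authors' library totals, no lens genes, a filter at a mean of 1 RPKM or none, summed transcripts, the Wald test of DESeq2 1.42.0, left-out libraries or mice, a replicate block and subsets of samples. Chosen after seeing the data were the fits without the left eye of E32 and the ratio to Crx. Replicate numbers were not used as pairs: the correlation of deviations from the group mean was 0.193 between newborn wild type and labelled knockout and 0.0843 between newborn and adult labelled knockouts.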

Additional observations from a re-analysis of the deposited data

Results flagged for a closer look

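In the open labelled-knockout eyes at day 3, Reep6 was highest in the right eye of E32, at 48.2 CPM against 26.5 to 29.4 CPM in the other 3. The gap to its nearest neighbour was 0.867 of the group's range, and in groups of this size chance alone marks about 1 in 20. That rate takes the eyes as independent, but both eyes of E32 are in this group. The adult minus the newborn genotype effect passed for Samd7 at 2.50 and for Cplx4 at 2.66 on the log2 scale by the interaction contrast in edgeR (adjusted p = 0.0426 and 0.0422), with every newborn labelled knockout below every newborn wild type for both genes. Neither passed without newborn wild-type replicate 1 or 2 or without newborn labelled-knockout replicate 1.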

How the results depend on the processing

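The count of newborn rod genes that passed ran from 0 to 29 as single libraries were left out, and from 25 to 30 under the other alternatives (edgeR or DESeq2). With the replicate number as a block, which the labels do not support as a pairing, 28 newborn genes passed, and 37 from newborn to adult in the labelled knockouts. For the adult against the newborn genotype effect, 2 genes passed, against 4 with a filter at a mean of 1 RPKM, 18 by DESeq2 and 0 to 19 as single libraries were left out. For 1 genotype effect over both ages, 0 passed, against 23 by DESeq2, and 0 with each library but the adult wild type left out. From newborn to day 3, 5 passed, against 3 with the authors' library totals, 21 by DESeq2, 2 with open eyes only, 13 without the left eye of E32 and 0 to 24 with a library or mouse left out. The causes of these differences were not tested. No value of a gene that passed changed sign under the alternatives run. Comparisons with the adult wild type, and a genotype effect over both ages, could not be had without it, nor that of labelled knockout with Egr1+/- without E28. Genes with few reads at birth and day 3, such as Gucy2f, Impg1 and Cplx4, are limited by depth.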
